A study of Sus scrofa with 20 samples.

Results

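The microRNAs hsa-miR-203a-3p and hsa-miR-200c-3p, best known from epithelia, were followed in blood cells of pigs before and after a brain bleed. They are 2 of the 608 miRNAs in the deposited table of reads counted against human miRNAs, and both are among the 245 miRNAs there with enough reads to be tested. They were chosen by name with earlier results of these data known: in the fit with the replicate number as a block, miR-203a-3p was lower after the bleed with an adjusted p of 0.00116 and miR-200c-3p higher with an adjusted p of 0.0450 (edgeR quasi-likelihood test, Benjamini-Hochberg over 245 miRNAs). Their change between the 2 groups is therefore given here as a description and not as a test.

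The libraries were of small RNA from PBMCs (peripheral blood mononuclear cells, mainly lymphocytes with some monocytes, isolated on a density gradient). The donors were female American Yorkshire pigs that weighed 36 to 41 kg at an age of 80 to 90 days. The 10 Control libraries came from blood drawn before intracerebral hemorrhage (ICH) and the 10 ICH libraries from blood drawn 6 h after it. ICH was modelled by injecting 2 to 4 ml of the pig's own blood through a burr hole into the frontal white matter. The replicate numbers 1 to 10 occur in both groups and pair each Control library with an ICH library. No sham-operated pigs were analysed here, so the effects of the bleed, of the surgery and of elapsed time cannot be told apart.

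A microRNA is a short RNA that guides the Argonaute proteins to matching sites in messenger RNAs and represses them. miR-203 is abundant in skin, where it restrains the stem cell factor p63 as keratinocytes differentiate. miR-200c belongs with miR-200a, miR-200b, miR-141 and miR-429 to the miR-200 family, which represses the transcription factors ZEB1 and ZEB2 and so keeps cells epithelial. In mammals miR-200c and miR-141 are made from a common primary transcript, and miR-200a, miR-200b and miR-429 from another. miR-205 is a marker of squamous and glandular epithelium. Rows of these families therefore count the other epithelial-type reads of a blood cell library that matched a reference miRNA. Pig reads that differ from the human sequence may be missed in the human-reference rows, which was not tested.

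The human-reference table held 919313 to 2177834 reads per library. The pig-reference table of the same libraries held 896960 to 2103685, and the human-reference totals were 1.02 to 1.04 times as large, so the tables are not independent. In both groups miRNAs of lymphocytes and of myeloid cells were abundant. miR-150-5p, a lymphocyte miRNA, averaged 10764 ± 2249 CPM in Control and 8342 ± 2269 CPM in ICH (SD, n = 10 each). miR-223-3p, a myeloid one, averaged 1228 ± 353 CPM in Control and 1885 ± 503 CPM in ICH (SD, n = 10 each). CPM are counts per 1000000 reads, with library sizes scaled by edgeR's TMM method. Reads of mature miRNAs need no correction for length, but ligation and amplification favour some sequences over others, so levels of different miRNAs compare only roughly. In such bulk samples, fewer cells of a type and less of the miRNA per cell cannot be told apart.

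miR-203a-3p was not scarce in these blood cells. It took 58357 reads over the 20 libraries, 1187 to 6877 in each, and ranked 45th of 245 in Control and 51st in ICH by mean level. In single libraries its rank ran from 39 to 61. Its nearest neighbours in mean level over all libraries were miR-532-5p at 2141 CPM and miR-106b-5p at 1911 CPM, against 2028 CPM for miR-203a-3p. In Control those neighbours averaged 1964 ± 471 and 1919 ± 405 CPM (SD, n = 10), so their spreads overlap with that of miR-203a-3p.

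Before ICH the level of miR-203a-3p ran from 1855 to 3100 CPM with a median of 2351, and 6 h after ICH from 1254 to 2063 with a median of 1762. The group means were 2347 ± 381 and 1709 ± 241 CPM (SD, n = 10 each). The 2 groups overlapped, with 4 Control libraries inside the ICH range and 3 ICH libraries inside the Control range. The fitted log2 fold change was -0.45 ± 0.092 (SE), a level 0.730 times that before ICH. Of the 245 miRNAs, 15 (6.12%) were called lower in that fit and 32 (13.1%) higher, and miR-203a-3p is one of the 15.

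All 10 pairs were lower in ICH for miR-203a-3p, which was also true of 2.45% of the 245 miRNAs tested, this one included. The drop was deepest in number 1, from 2583 to 1254 CPM, and shallowest in number 5, from 2017 to 1901 CPM. The median ICH to Control ratio over pairs was 0.745. The 95% interval for counting error alone was 0.454 to 0.519 in number 1 and 0.899 to 0.989 in number 5. The spread between libraries of a group was 16.2% of the mean in Control and 14.1% in ICH, against about 1.8% and 2.2% from counting.

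**Figure D1:**
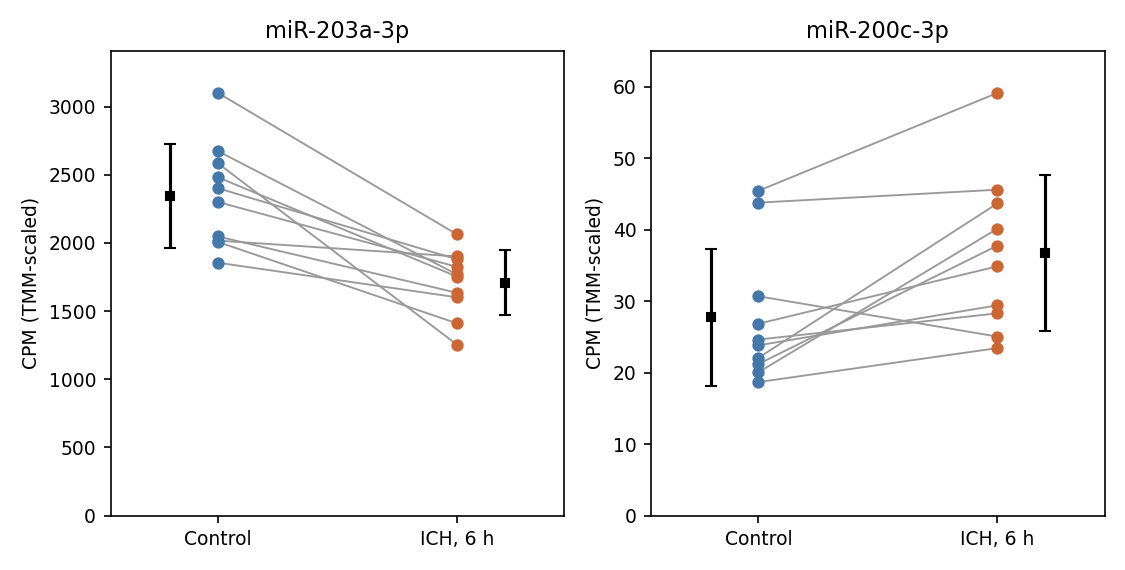
Level of miR-203a-3p (left) and miR-200c-3p (right) in each library, in CPM with TMM-scaled library sizes, with lines joining the Control and ICH libraries of a replicate number and black squares and bars for the mean and SD of 10 libraries. miR-203a-3p is lower in ICH in 10 of 10 pairs and miR-200c-3p higher in 9 of 10, and the groups overlap for both.

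miR-200c-3p was scarce and present in every library. It had 887 reads in all, with 21 to 107 in a library, and ranked 184th of 245 in Control and 171st in ICH. Next to it in mean level were miR-30c-1-3p at 32.31 CPM and miR-95-3p at 32.21 CPM, against 32.24 CPM for miR-200c-3p. These 3 levels do not differ beyond their spread. A count as low as 21 carries a counting interval of 13 to 32.1 reads (exact Poisson, 95%), so one library fixes the level of miR-200c-3p loosely.

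Before ICH the level of miR-200c-3p ran from 18.7 to 45.5 CPM with a median of 24.2, and after ICH from 23.4 to 59.1 with a median of 36.3. The means were 27.7 ± 9.55 and 36.7 ± 11 CPM (SD, n = 10 each). Here too the groups overlapped, with 6 Control libraries inside the ICH range and 8 ICH libraries inside the Control range. Numbers 2 and 9 were the high libraries before ICH, at 45.5 and 43.8 CPM, and were also the highest libraries after it, at 59.1 and 45.6 CPM. The fitted log2 fold change was 0.43 ± 0.15 (SE), a level 1.35 times that before ICH.

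miR-200c-3p was higher after ICH in 9 of 10 pairs, and 12.7% of the 245 miRNAs were higher in at least 9. The ratio within a pair ran from 0.816 in number 4 to 2.0 in number 10, with a median of 1.28. The ratios were highest in numbers 6, 7 and 10, at 1.98, 1.78 and 2.0, and in these 3 of 10 pairs the interval for counting error excluded 1. In the other 7 pairs the difference lay within counting error; number 1 had 32 reads before and 33 after. Counting intervals leave out the spread between libraries, so they do not show a change in a single pair. Counting gave a spread of 16.8% of the level in Control and 15.3% in ICH, and the libraries of a group differed by 34.4% and 29.8%.

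The call on miR-200c-3p depended on the fit. Without the block its log2 fold change was 0.42 ± 0.19 (SE) with an adjusted p of 0.233 (edgeR), where 3.67% of the 245 miRNAs were called. Of 9 settings other than the blocked edgeR fit, the fit without the block included, 2 gave it an adjusted p under 0.05. Both used limma voom, and 1 of them, with a random replicate effect, was chosen after seeing the data. Leaving out each replicate number in turn kept miR-200c-3p under 0.05 in 1 of 10 fits, the one without number 4. The same 9 and 10 fits gave miR-203a-3p an adjusted p of 1.22e-05 to 0.0263. Both directions were the same in all of these fits, as the plot of fold change by setting shows. Scaling by library totals moved the median log2 fold change of all miRNAs by -0.11, from 0.03 to -0.08. Relative to that median, miR-203a-3p was at -0.48 under both scalings and miR-200c-3p at 0.41.

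**Figure D2:**
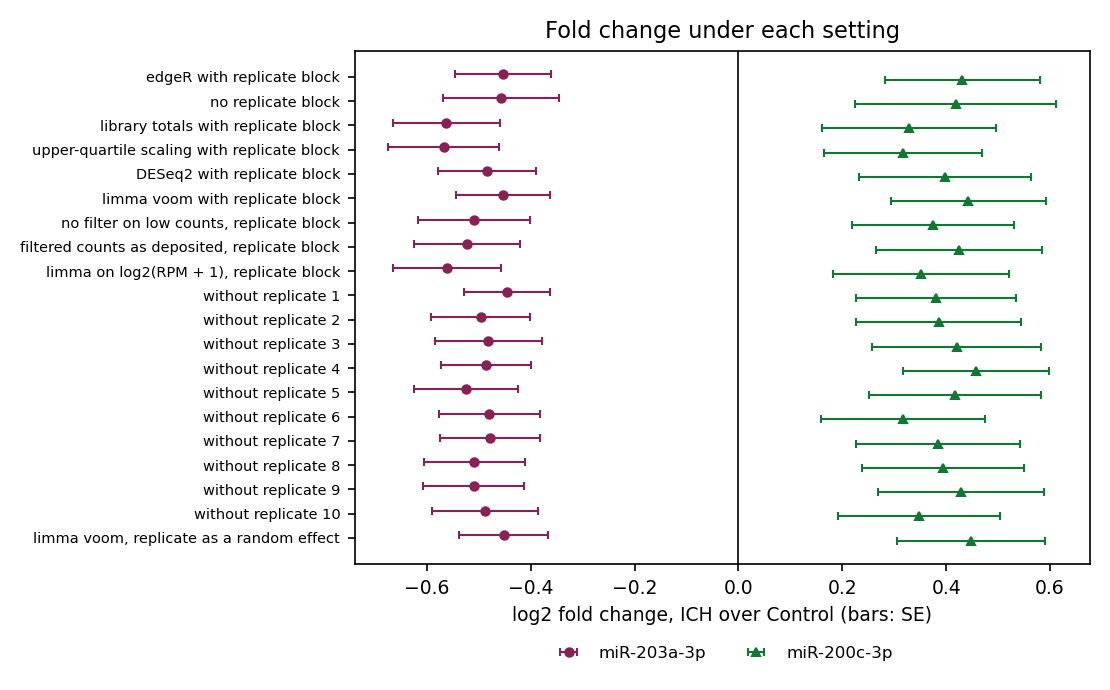
Log2 fold change (ICH over Control) with its SE for both miRNAs, under the blocked edgeR fit and 19 other settings listed on the left axis. miR-203a-3p lies between -0.57 and -0.45 and miR-200c-3p between 0.32 and 0.46, and neither crosses 0.

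No relation between the 2 miRNAs was found across pairs. Over the 10 replicate numbers their log2 changes had a Pearson r of 0.135 (two-sided permutation test, p = 0.717) and a Spearman rho of 0.0909 (p = 0.810). Their Control levels had r = 0.0184 (p = 0.959) and rho = 0.212 (p = 0.559). These are 2 of 8 relations computed, with adjusted p of 0.819 and 0.959 for r and 0.810 and 0.690 for rho. With the 2 numbers farthest from the median on the x axis left out, r was 0.322 and 0.0555. The ratio of miR-203a-3p to miR-200c-3p within a library had a median of 87.2 in Control and 46.4 in ICH and was lower after ICH in 10 of 10 pairs. That follows from the opposite directions for which they were chosen.

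**Figure D3:**
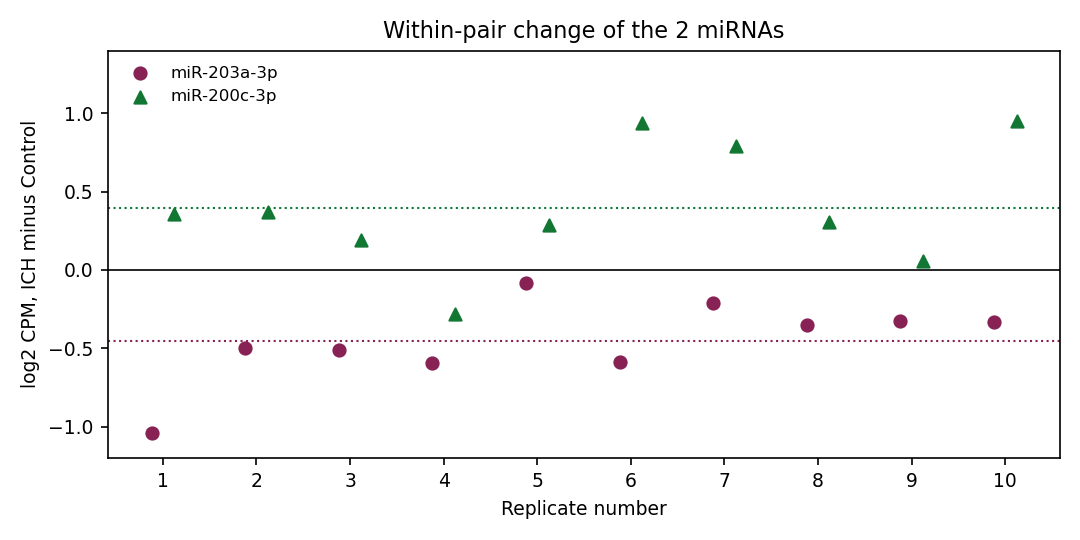
Change in log2 CPM from Control to ICH for each replicate number, with circles for miR-203a-3p, triangles for miR-200c-3p, dotted lines for their means and a solid line at 0. The changes of miR-203a-3p run from -1.04 to -0.09 and those of miR-200c-3p from -0.28 in number 4 to 0.95 in number 10, with no common order of the numbers.

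Whether levels were kept across the 6 h was asked by relating Control to ICH levels of the same replicate number. For miR-203a-3p r was 0.299 (permutation test, p = 0.404, adjusted p = 0.714) and rho 0.333 (p = 0.349, adjusted p = 0.587). For miR-200c-3p r was 0.551 (p = 0.101, adjusted p = 0.406) and rho 0.394 (p = 0.264, adjusted p = 0.587). Leaving out the 2 numbers farthest from the Control median gave -0.0603 for miR-203a-3p and, without numbers 2 and 9, -0.242 for miR-200c-3p. Leaving out the extremes also narrows the range, so the lower r does not show whether the relations rested on those libraries. Neither relation passed its test with all 10 numbers. With library totals in place of TMM, r over all 10 numbers was 0.561 for miR-203a-3p (adjusted p = 0.371, permutation test) and 0.428 for miR-200c-3p (adjusted p = 0.575).

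The other rows of these families had few reads, at most 93 over the 20 libraries, in miR-203b-3p. The human-reference table has 9 rows of the miR-200, miR-141, miR-203 and miR-205 families besides miR-203a-3p and miR-200c-3p, and none of the 9 had enough reads to be tested. miR-205-5p had 6 reads in 5 of 20 libraries, 1 in Control and 5 in ICH, or 0.214 RPM (reads per 1000000 human-reference reads, here from unfiltered totals over all 20 libraries; 95% exact Poisson interval 0.0786 to 0.466, counting error only). Of the names miR-200, miR-141, miR-203 and miR-205, the pig-reference table used here holds a row for miR-205, with the same 6 reads. The rows of the other names have human-reference counts only, so a low count there could not be compared between the references. The gene of miR-205, MIR205, lies on chromosome 9 at 133517078 to 133517146 (Sscrofa11.1). A search by name found no miR-429 row in the unfiltered human-reference or pig-reference counts. At fewer than 3 reads in any library, miR-205 was at the limit of detection throughout. miR-375, an miRNA of gut and endocrine epithelium, had 10 reads in 4 libraries.

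Among the miR-200 family, miR-200b-3p had 28 reads in 12 libraries (1.0 RPM), miR-200a-3p had 13 in 8 libraries and miR-141-3p had 13 in 7 libraries (0.464 RPM each). miR-200c-3p stood at 31.7 RPM on the same scale. Of the reads that fell to miR-141-3p or miR-200c-3p, its partner on the primary transcript, miR-141-3p took 5 of 390 in Control (1.28%, 95% exact binomial interval 0.418 to 2.97%) and 8 of 510 in ICH (1.57%, 0.680 to 3.07%). The other arms had at most 2 reads each: miR-200a-5p had 2, miR-200b-5p 1 and miR-141-5p 1. Each of these rows of miR-200a, miR-200b and miR-141 thus had far fewer reads than miR-200c-3p.

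The miR-200a, miR-200b, miR-141 and miR-205 rows together had 64 reads in the 20 libraries, which is 7.22% of the reads of miR-200c-3p and 0.110% of those of miR-203a-3p. Control libraries held 0 to 6 of them, 24 in all, and ICH libraries 0 to 16, 40 in all. The ICH to Control ratio of their rates was 1.65, with a counting interval of 0.972 to 2.86. ICH 4 alone held 16 of the 40, and without it the ratio was 1.11 (0.605 to 2.05). In ICH 4 miR-200c-3p was at 25.1 CPM, the second lowest of the 10 ICH libraries, and number 4 was the pair in which it was lower after ICH. ICH 6 held 6 of the 40, and also 19 reads of miR-203a-5p and miR-203b-3p against 5 in ICH 4; its miR-200c-3p was at 43.7 CPM, the third highest, and 1.98 times that of its Control library. ICH 6 also had the most human-reference reads of all libraries. Its rate of the miR-200a, miR-200b, miR-141 and miR-205 rows was 2.755 RPM. That is below ICH 4 (10.4), ICH 1 (5.439) and ICH 2 (4.082). In ICH 1 miR-200c-3p was at 34.9 CPM, and in ICH 2 at 59.1, the highest of the ICH libraries. The CPM here are TMM-scaled and the RPM of the rows are not, so the scales differ. In deposited RPM, miR-200c-3p was at 45.65 in ICH 6, below ICH 2 at 47.11 and above ICH 9 at 33.26. A relation between these rows and miR-200c-3p across libraries was not tested.

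**Figure D4:**
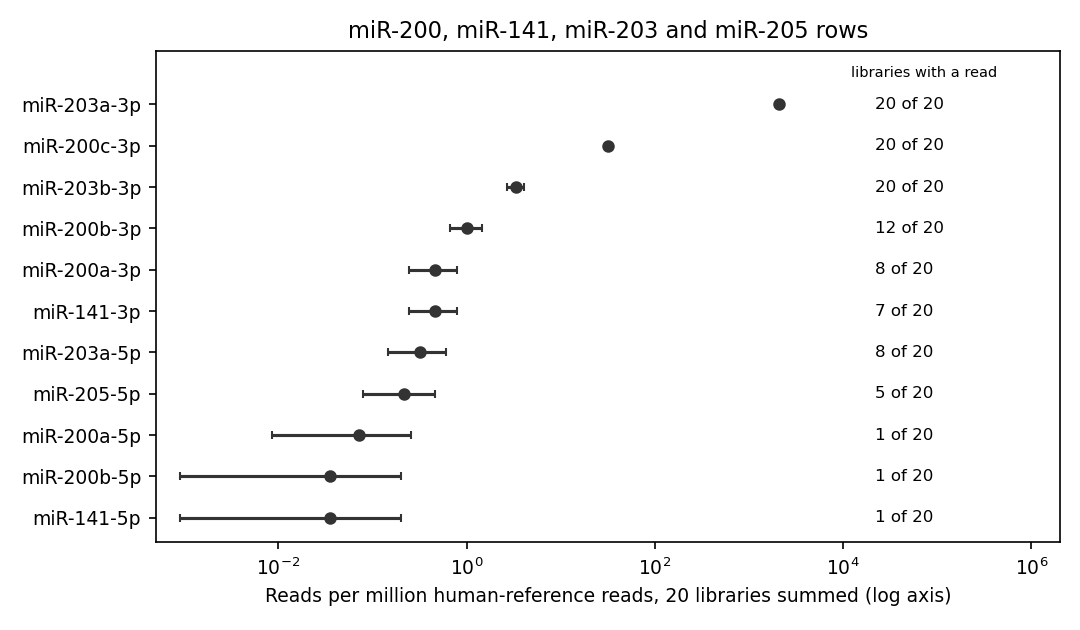
RPM from unfiltered human-reference totals, summed over 20 libraries, for each row of the miR-200, miR-141, miR-203 and miR-205 families on a log axis, with 95% exact Poisson intervals for counting error and the number of libraries with at least 1 read at the right. miR-203a-3p (2080) and miR-200c-3p (31.7) stand above miR-203b-3p (3.32), and the other rows lie at 1.0 or less.

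At the miR-203 locus nearly all reads were of miR-203a-3p. The other arm, miR-203a-5p, had 3 reads in Control and 6 in ICH, against 34409 and 23948 of the 3p arm. miR-203b-3p, whose human gene overlaps that of miR-203a on the opposite strand, had 93 reads, with 1 to 12 in a Control library and 1 to 17 in an ICH library. It made up 0.131% of the miR-203a-3p and miR-203b-3p reads in Control (95% exact binomial interval 0.0953 to 0.175%) and 0.200% in ICH (0.148 to 0.265%), and the libraries overlapped, at 0.0578 to 0.252% and 0.0528 to 0.336%. The rate of miR-203b-3p itself was 1.06 times that of Control after ICH, with a counting interval of 0.689 to 1.62. The authors' rule for reads that match both names is not given in the sources used here, so the division between them is uncertain.

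The authors' filter treated the 2 miRNAs differently. It kept 97.9% of the miR-203a-3p reads and 87.1% of the miR-200c-3p reads, the latter between 77.3% and 96.4% in single libraries. The 66 tested miRNAs at 0.5 to 2 times the mean level of miR-200c-3p kept a median of 87.9%, close to its own share. In the deposited RPM values miR-203a-3p went from 2395 ± 387 to 1621 ± 270 and miR-200c-3p from 24.2 ± 6.28 to 31.5 ± 9.14 (SD, n = 10 each). By RPM miR-203a-3p was lower in 10 of 10 pairs and miR-200c-3p higher in 8.

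A wider list of miRNAs enriched in epithelia had 6 tested miRNAs out of 17 names. With the block, 3 were higher after ICH, 2 were lower and 1 did not pass, with a median log2 fold change of 0.32 against 0.03 over all 245. Over all 245 miRNAs 19.2% were called, 13.1% higher and 6.12% lower. Of the 5 called here 2 are miR-203a-3p and miR-200c-3p, already known to be called and part of the list's median. The list itself was chosen with earlier results of these data known, so its share of calls is a description and not a test. miR-182-5p (0.62 ± 0.11 SE) and miR-183-5p (0.47 ± 0.15), products of one cluster that is active in sensory organs and also in activated lymphocytes, were higher beside miR-200c-3p. miR-31-5p (-0.61 ± 0.16), an miRNA of keratinocytes and of T cells, was lower beside miR-203a-3p. miR-192-5p, abundant in gut and liver, stood at 0.21 ± 0.13 on the log2 scale (adjusted p = 0.291, edgeR). So the tested miRNAs of the list moved in both directions. Without the block, miR-203a-3p was the one of the 6 with an adjusted p under 0.05.

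Markers of blood cell types also differed between the groups, and those said here to rise or fall had an adjusted p under 0.05 with the block (edgeR), as did 13.1% of all 245 miRNAs upward and 6.12% downward. The 2 lymphocyte markers summed to 7753 to 15658 CPM in Control and 6436 to 13982 in ICH, and 1 of them, miR-150-5p, fell (-0.38 ± 0.10 SE). Both arms of the myeloid miR-223 rose, and they summed to 755 to 2168 CPM in Control and 1812 to 3093 in ICH. Of 4 red cell miRNAs 2 rose, with sums of 111 to 812 and 429.1 to 1334 CPM, and of the 2 arms of miR-126, from platelets and vessel wall, 1 rose. Without the block the adjusted p of miR-150-5p was 0.147 and those of the 2 red cell miRNAs, miR-144-3p and miR-486-5p, 0.388 and 0.136, while both arms of miR-223 and miR-126-3p stayed under 0.05 (edgeR). Their part in the levels of miR-203a-3p and miR-200c-3p was approached through the pairs. Within each library, miR-223-3p over miR-150-5p had a log2 ratio of -3.16 ± 0.39 before ICH and -2.15 ± 0.32 after it (SD, n = 10 each). This ratio rose in 10 of 10 pairs.

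Over the 10 numbers the change of that ratio had r = -0.385 with the change of miR-203a-3p (permutation test, p = 0.274, adjusted p = 0.714; rho = -0.636, p = 0.0545, adjusted p = 0.436). With the change of miR-200c-3p r was -0.272 (p = 0.446, adjusted p = 0.714; rho = -0.321, p = 0.367, adjusted p = 0.587). The change of the log2 ratio of miR-451a, a red cell miRNA, to miR-23a-3p had r = -0.155 with that of miR-203a-3p (p = 0.636, adjusted p = 0.819; rho = -0.188, p = 0.604, adjusted p = 0.690). With that of miR-200c-3p it had r = -0.686 (p = 0.0237, adjusted p = 0.190; rho = -0.539, p = 0.113, adjusted p = 0.453). Without numbers 4 and 6 the last r was -0.168, over a narrower range of the ratio, which by itself can lower r. Number 4 had the largest change of the ratio, 3.16, and the lowest change of miR-200c-3p. For the other 3 relations r without the 2 farthest numbers was -0.0327, -0.125 and -0.136. None of the 8 relations passed after adjustment.

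The miRNAs most like each of the 2 were sought by Pearson's r of log2 CPM, less the group mean, over the 20 libraries. For miR-203a-3p they were miR-221-5p (r = 0.680), miR-142-5p (0.651), an miRNA of blood cells at 14752 CPM, and miR-361-3p (0.630). For miR-200c-3p they were miR-3591-5p (0.643), miR-191-5p (0.601) and miR-193a-5p (0.590). On this measure miR-200c-3p was 108th of 244 for miR-203a-3p, at r = 0.0368, so neither was near the other. These are the highest of 244 values each and share the libraries and their scaling. With library totals in place of TMM the same 6 miRNAs ranked 3rd, 1st and 7th for miR-203a-3p and 1st, 8th and 3rd for miR-200c-3p. The log2 fold changes of the 3 miRNAs most like miR-203a-3p were -0.12, -0.25 and -0.09, and of those most like miR-200c-3p -0.23, 0.02 and -0.10. None of the 6 passed the blocked test.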

How the data were processed

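The authors deposited unnormalized read counts of each miRNA in each library, matched to human (608 rows) and to pig (284 rows) miRNAs, and a filtered version of both. Per the submitters' processing notes, bcl2fastq, FastQC and Bowtie were used, and the builds named are Sscrofa11.1 for pig and GRCh38 or hg38 for human. How reads were assigned and filtered is not given in the sources. When checked, deposited RPM equalled filtered counts per 1000000 of their library total, within 0.005.

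Unfiltered human-reference counts were fitted with edgeR 4.0.16 under R 4.3.3 (filterByExpr, TMM, robust quasi-likelihood, Benjamini-Hochberg over 245 miRNAs, threshold 0.05), with the replicate number as a block, since the design text describes blood before and 6 h after ICH. Libraries of one number deviated together from their group means (correlations 0.146 to 0.672, 10 of 10 over 0.1). Between different numbers the median correlation was -0.071, and in 7 of 10 numbers the 2 libraries were each other's best match. The labels do not say whether each number is a separate animal, so p-values cover the spread between these pairs. SEs come from the fold change and F. Log2 CPM use a prior count of 2. Alternatives used DESeq2 1.42.0 and limma 3.58.1 (log2 of RPM plus 1). Correlations used 100000 resamples. Counting intervals (95%) treat reads as independent molecules, which reads without molecular identifiers are not. The fits were tested on simulated data. No 2 libraries agreed within sampling noise (chi-square per degree of freedom at least 20.3).

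The 2 miRNAs, the lists and the tests were chosen with earlier results of these data known. The miRNAs named are the 2, the rows of their families, the 3 most like each, their neighbours in level, the parts of 2 ratios and list members. MIR205 was placed by its name in the RefSeq genes of Sscrofa11.1.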

Additional observations from a re-analysis of the deposited data

Results flagged for a closer look

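In 18 groups of 10 values (levels, ratios, reads of the family rows, read totals and changes within pairs), 3 had a value whose gap to the next value took up more of the range than Dixon's 95% critical value of 0.466 allows; chance gives about 1 in 20. ICH 4 had 10.4 RPM from the miR-200a, miR-200b, miR-141 and miR-205 rows, against 0 to 5.44 in the other ICH libraries. ICH 6 had 7.81 RPM of miR-203b-3p, against 0.835 to 4.35 in the others. The log2 change of miR-203a-3p was -1.04 in number 1, against -0.59 to -0.09 in the other numbers, with a share of the range of 0.467, just over the critical value.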

How the results depend on the processing

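Without the replicate block, 9 of 245 miRNAs were called against 47 with it. The calls with the block were 32 higher and 15 lower, but 15 and 24 with library totals, 18 and 29 with upper-quartile scaling, 29 and 18 with DESeq2, 30 and 20 without the filter on low counts, 26 and 21 with the filtered counts and 17 and 22 with limma on RPM. Leaving out each number in turn gave 32 to 61 calls. miR-203a-3p kept its direction and an adjusted p under 0.05 in each alternative, at -0.53 to -0.45 with a number left out. miR-200c-3p was no longer past the threshold with no replicate block (0.42), library totals (0.33), upper-quartile scaling (0.32), DESeq2 (0.40), no filter on low counts (0.38), the filtered counts (0.42) and limma on RPM (0.35). With a number left out its log2 fold change was 0.32 to 0.46, and 9 of 10 such fits missed the threshold; the cause was not tested. limma voom gave 0.44 with a fixed block and 0.45 with a random replicate effect, an alternative chosen after seeing the data, both past it. None of the 8 correlations passed under library totals, a prior count of 0.5 or 2 numbers left out, though with library totals the r of the 2 Control levels was -0.337 against 0.0184 and that of Control with ICH levels of miR-203a-3p 0.561 against 0.299. The 21 to 107 reads of miR-200c-3p per library limit its change in single pairs.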
